A study of Mus musculus with 8 samples.

Results

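The miR-146 genes of the mouse, Mir146 (which makes miR-146a) and Mir146b, were followed across small RNA libraries of spleen B cells. The genes were taken by name, and they are 2 of the 2202 miRNA genes in the deposited count tables. All animals were Ago2HA/HA, so that AGO2, an Argonaute protein that carries miRNAs to their targets, bears an HA epitope in every group and there is no group without it. B cells were isolated untouched, by removing CD43-bearing cells, and were used resting or after activation in vitro, which made them proliferate. The labels name neither the activating agent nor the culture time or the animals' age. The 8 libraries form 4 groups of 2, namely input RNA and anti-HA AGO2 immunoprecipitate (IP) of resting cells, and input RNA and IP of proliferating cells. Cells without the epitope yielded no RNA after the IP, per the labels, so input is the only reference for each IP.

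miR-146 is known as a brake on innate immune signalling. Toll-like receptors and other activating receptors switch on the transcription factor NF-kappaB, which induces the Mir146 transcript. The mature miRNA represses Traf6 and Irak1, an adaptor and a kinase that lie upstream of NF-kappaB, and so closes a negative feedback loop. Mice without Mir146 are known to develop overactive myeloid and lymphoid cells.

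The mature sequences are shown because they decide which reads can be told apart and which targets the members can share. They come from RefSeq (GRCm38.p6), are written 5′ to 3′, and have the seed, bases 2 to 8, in capitals.
miR-146a-5p: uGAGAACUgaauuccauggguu
miR-146b-5p: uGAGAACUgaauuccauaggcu
miR-146a-3p: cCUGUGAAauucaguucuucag
miR-146b-3p: gCCCUAGGgacucaguucuggu
The 5p arms have the same seed, which no other of the 1679 mature mouse miRNA names in the table carries. The 3p arms have different seeds, each found in no other mature sequence of the table. Counted from 1 at the 5′ end, the 5p arms differ by G18A and U21C from miR-146a to miR-146b, so 20 of 22 bases are identical, and the first 17 are the same. A read that ends before base 18 therefore fits both genes, and how reads that fit several places were counted is not stated.

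The counted features are the whole hairpins, so that each value sums both arms and says nothing of the 5p or 3p arm alone. The hairpins are shown with their mature arms in capitals.
Mir146 hairpin: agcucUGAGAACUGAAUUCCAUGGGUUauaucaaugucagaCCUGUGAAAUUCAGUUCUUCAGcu
Mir146b hairpin: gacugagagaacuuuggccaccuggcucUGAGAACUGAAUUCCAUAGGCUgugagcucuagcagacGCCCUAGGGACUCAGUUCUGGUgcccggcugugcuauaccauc
Mir146 (ENSMUSG00000065601.1) is a feature of 65 nt on the minus strand of chromosome 11, from 43374397 to 43374461 (mm10), and overlaps no other gene in the RefSeq table. The nearest RefSeq gene, Gm5782, lies 40.2 kb away. Mir146b (ENSMUSG00000070127.2) is a feature of 109 nt on the plus strand of chromosome 19, from 46342762 to 46342870, inside the span of the long non-coding RNA gene Gm36493. It lies 30.4 kb from Nfkb2, the gene of the NF-kappaB subunit p52, with 2 protein-coding genes wholly between them. No other counted feature overlaps either hairpin. The longest run that the hairpins share is 21 bases, which takes in the first 17 bases of the 5p arms, while no arm shares more than 11 bases in a row with any other hairpin.

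Library totals ranged from 213418 to 1681148 counts, and were higher in every IP than in every input. Mir150, known for its high level in resting lymphocytes, took from 30.2% to 30.7% of the resting inputs against 2.87% to 3.84% of the proliferating inputs, while Mir155, known to be induced on B cell activation, took from 1.08% to 1.21% against 14.8% to 15.3%. Both markers thus followed the state labels. Mir223, the myeloid marker, also moved with state, at 1.153% to 2.86% of the resting inputs and 0.221% to 0.339% of the proliferating inputs. Myeloid cells are known to make miR-146a too. The erythroid Mir144 was higher in resting cells (3.42 on the log2 scale in the input and 5.58 in the IP), and the endothelial Mir126a was lower (-1.41 and -3.74). Of the 5 epithelial markers 2 were higher in the resting than in the proliferating input, beside 23.3% of all tested features. All 5 were higher in the resting than in the proliferating IP, beside 23.7%. Both counts include Mir200a (2.89 and 2.63), which reached the filter level in all resting libraries but only 1 proliferating library. A higher level in resting cells was thus a condition of its being tested, and its calls between states support nothing. In the resting IP 3 of the 5 were higher than in its input, beside 13.2%, while Mir200a went the other way (-1.33) and did not pass (edgeR adjusted p = 0.082). The summed share of the 5 went from between 0.109% and 0.129% in the resting input to between 0.197% and 0.209% in the resting IP. The stromal Mir10b was also higher in the resting IP than in its input (2.38), but passed the filter only through IP libraries. The hepatocyte Mir122 was lower in the resting input (-2.54), with 3 and 4 counts. Of the 6 neural markers 4 had no count, and the other two had 4 counts in all. The part of these markers in the values below was not tested.

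Mir146 was among the 4 most counted features in every library. It took 7.85% (95% exact Clopper-Pearson interval 7.76 to 7.94) and 7.75% (7.67 to 7.84) of the counts in the resting inputs. Resting IP replicates 1 and 2 held 14.2% (14.15 to 14.26) and 10.9% (10.88 to 11.01). In the proliferating inputs the shares were 13.9% (13.75 to 14.01) and 13.2% (13.06 to 13.35). These inputs stood well above the resting inputs. The proliferating IPs held 10.4% (10.36 to 10.498) and 10.95% (10.899 to 11.004), below their inputs and about level with resting IP replicate 2. The intervals cover counting error only, and the libraries of a group differed by more than that in all groups but the resting input. As group means the shares were 7.80% ± 0.0682 (SD, n = 2 here and below) of the resting input, 12.6% ± 2.31 of the resting IP, 13.5% ± 0.476 of the proliferating input and 10.7% ± 0.368 of the proliferating IP. From lowest to highest share the order was resting input, proliferating IP, resting IP and proliferating input, and the resting IP did not differ from its neighbours in that order beyond its own spread.

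**Figure D1:**
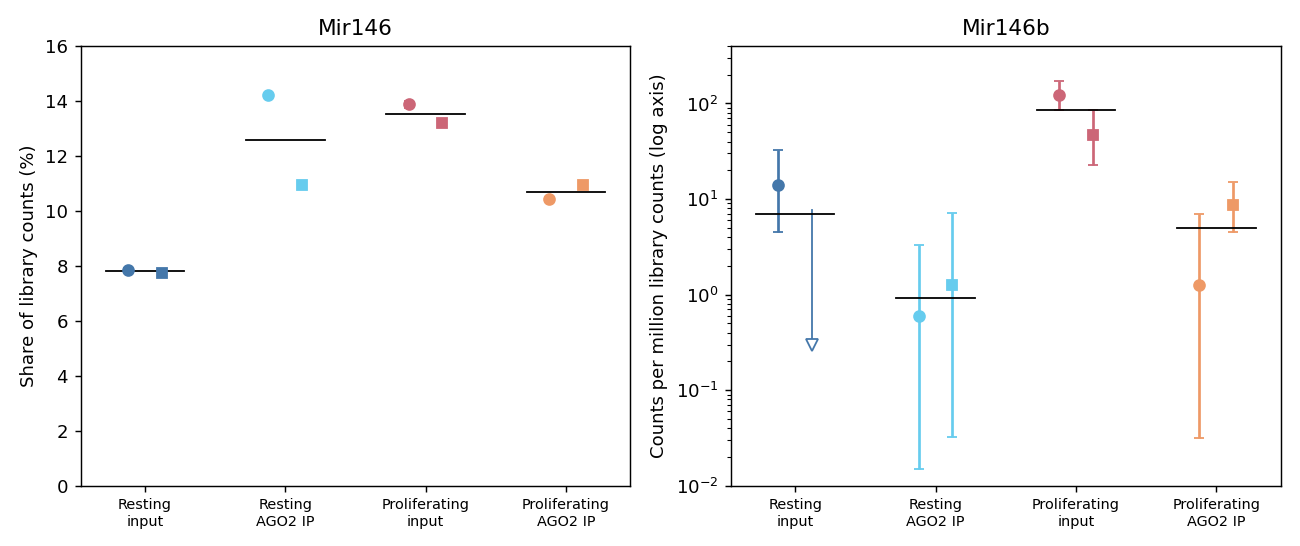
Share of library counts of Mir146 in percent (left, linear axis from 0) and CPM of Mir146b by library total (right, log axis) in the 8 libraries. Circles are replicate 1, squares replicate 2, bars 95% exact counting intervals and black lines group means; the open triangle marks the library without a Mir146b count, with a line up to the level of 3 counts. The resting inputs are lowest for Mir146, and the proliferating inputs are highest for Mir146b.

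Mir146b had few counts. There were 64 in all 8 libraries together, against 683476 for Mir146. The resting inputs had 5 and 0 counts, and 0 of 386598 counts allows a level of up to 7.76 CPM (counts scaled to a library total of 1000000), taken as 3 counts. Each resting IP had 1 count. The proliferating inputs had 34 and 10 counts, or 123 and 46.9 CPM of the library total. In the proliferating IPs there were 1 and 12 counts. The proliferating inputs were thus above all other libraries by CPM. For every 10000 counts of Mir146 there were 8.87 and 3.55 of Mir146b in the proliferating inputs. The proliferating IPs had 0.121 and 0.796 and the resting inputs 1.78 and 0 on this scale, and the values were smallest in the resting IPs, with 0.0419 and 0.116. Per nucleotide of hairpin these group means were 3.70 per 10000 in the proliferating input and 0.529 in the resting input. Because the sequences allow shared reads, some of these counts could belong to Mir146, which was not tested.

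The miRNAs that flank Mir146 in abundance differed between the states, while its own rank stayed within the top 4. Counts were divided by hairpin length for this comparison. This leaves the order of Mir146, Mir150 and Mir155 as it is, since all have features of 65 nt, but moves Mir146 relative to longer features. Per nucleotide Mir146 was the second feature by group mean in the resting input, behind Mir150, and ahead of Mir29a, a miRNA known from resting lymphocytes. It was again second in the resting IP, behind Mir150 and ahead of Mir26b. In the proliferating input it followed Mir155 and preceded Mir93 of the growth-promoting miR-17 family. It was the third feature of the proliferating IP, after Mir155 and before Mir25. By counts alone Mir21a, a feature of 92 nt, came next there, at 10.67% against 10.69% for Mir146. In each proliferating IP library Mir146 ranked 4 by counts and 3 per nucleotide. In resting input replicate 1 Mir29a had more counts than Mir146, at 7.95% against 7.85%. In resting IP replicate 1 Mir146 had more counts than Mir150, and in replicate 2 fewer.

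Ratios within a library do not depend on scaling between libraries. Per nucleotide the ratio of Mir146 to Mir150 was 0.256 and 0.257 in the resting inputs, and 4.83 and 3.43 in the proliferating inputs. Among the IPs, resting cells gave 1.01 and 0.575, proliferating cells 3.39 and 6.51. The resting libraries all lay below the proliferating ones, and the resting IPs above the resting inputs. The ratio of Mir146 to Mir155 went the other way, with 6.49 and 7.20 for resting input, 17.0 and 10.52 for resting IP, 0.905 and 0.891 for proliferating input, and 0.967 and 0.882 for proliferating IP. Mir146 therefore had many times the counts of Mir155 in resting cells and slightly fewer in proliferating cells. Whether counts of different miRNAs stand for their levels alike was not tested. In the tests below, Mir150 was 11.6-fold higher in the resting input and Mir155 10.3-fold higher in the proliferating input. Mir146 differed 1.36-fold between the inputs and did not pass, so both ratios also carry the changes of Mir150 and Mir155. Mir150 was also lower in the resting IP than in its input (log2 fold change -0.66, edgeR adjusted p = 0.026), where 15.5% of features were lower. The higher ratio to Mir150 in the resting IPs therefore carries that change too. Against Mir21a, another miRNA linked to NF-kappaB, the ratio was much steadier over the inputs, at 3.08 and 2.80 in resting and 2.72 and 2.62 in proliferating cells. It was lower in the proliferating IPs, at 1.17 and 1.78, than in the resting IPs, at 2.74 and 1.85. The Mir21a hairpin is longer, 92 nt against 65 nt for Mir146. By counts alone the proliferating IPs gave 0.826 and 1.26, so Mir21a had more counts than Mir146 in replicate 1. With 2 libraries a group, an exact 2-sided permutation test cannot go below p = 0.333, so the ratios were not tested.

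**Figure D2:**
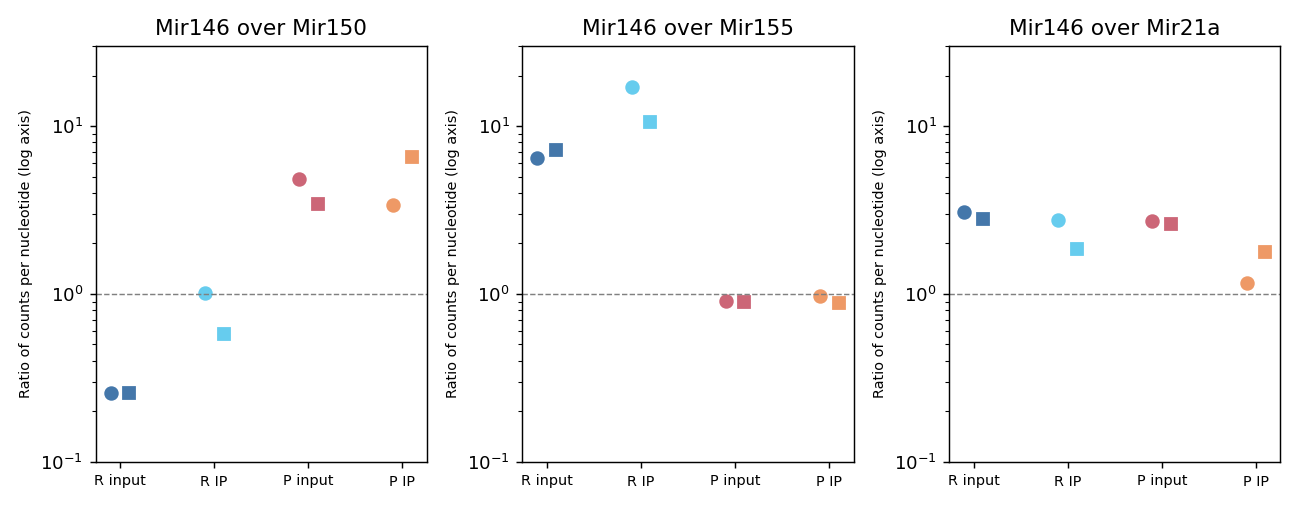
Ratio of Mir146 counts to those of Mir150, Mir155 and Mir21a within each library, per nucleotide of hairpin (log axes). R is resting, P proliferating, circles are replicate 1 and squares replicate 2, and the dashed line marks equal counts per nucleotide. Without division by hairpin length the ratio to Mir21a is 0.826 in proliferating IP replicate 1. The ratio to Mir150 is below 1.1 in all resting libraries and above 3 in all proliferating ones, while the ratio to Mir155 is above 6 in resting and below 1 in proliferating libraries.

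The comparison of IP with input asks how strongly Mir146 is represented with AGO2. Scaled with TMM factors (edgeR's trimmed mean of M-values), Mir146 stood at 78824 and 73600 CPM in the resting inputs and at 178238 and 115555 CPM in the resting IPs. The groups did not overlap, which held for 68.0% of the 219 tested features in this comparison. Mir146 rose 1.93-fold with the IP, a log2 fold change of 0.95 with an SE of 0.22 (edgeR's quasi-likelihood test, adjusted p = 7.1e-04 after Benjamini-Hochberg), where 28.8% of tested features differed and 13.2% were higher. This rise passed the threshold under every scaling, filter and left-out library tried, with log2 fold changes from 0.53 to 1.18 and edgeR or DESeq2 adjusted p from 4.6e-07 to 0.028. By replicate number, the share in the IP was 1.81 and 1.41 times that in the input. Without Mir150 counts, an alternative added after seeing the data, the mean share was 11.2% in the resting input and 15.0% in the IP. The summed share of the 5 epithelial markers was higher in the resting IPs too, as given above, while the myeloid Mir223 was at 0.35 on the log2 scale (edgeR adjusted p = 0.40), and their part in the rise was not tested. More miR-146a in the IP and less of other miRNAs cannot be told apart in such relative counts, and in bulk cells fewer cells of a type and less RNA per cell cannot be told apart.

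In proliferating cells Mir146 did not pass. It stood at 108199 and 98830 CPM in the inputs and 121316 and 127772 CPM in the IPs. Those libraries did not overlap either, as for 61.2% of features, but the difference was only 1.20-fold (log2 fold change 0.27, SE 0.22, 95% interval -0.17 to 0.71, edgeR adjusted p = 0.42). Its sign depended on scaling. With library totals it was -0.34 (edgeR adjusted p = 0.14), and the shares of IP over input were 0.752 and 0.829 by replicate number. The background share of calls in this comparison was 26.9%.

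The difference between the IP effects of the states was 0.68 on the log2 scale for Mir146 (SE 0.31, 95% interval 0.06 to 1.30, unadjusted p = 0.034, edgeR adjusted p = 0.13), where 17.4% of features were called, 7.76% as higher and 9.59% as lower. It did not pass, so the presence of a call in resting cells and its absence in proliferating cells is not a shown difference. With library totals it was 1.03 (edgeR adjusted p = 0.013), with no filter on low counts 0.88 (edgeR adjusted p = 0.015) and without resting IP replicate 2 it was 0.65 (edgeR adjusted p = 0.045), all past the threshold. Without resting IP replicate 1, the library with the highest Mir146 level, it was 0.22 (edgeR adjusted p = 0.58).

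The comparison of states within the input asks whether activation changes the Mir146 level in total RNA. The resting inputs, at the CPM given above, lay below the proliferating inputs, and 78.5% of features had groups that did not overlap. The level was 1.36 times as high in proliferating cells (log2 fold change -0.44, resting over proliferating, SE 0.22, edgeR adjusted p = 0.091) and did not pass, where 49.3% of features did and 26.0% were lower in resting cells. The size depended on scaling more than on any library left out. It was -0.80 with library totals (edgeR adjusted p = 0.0017), which is 1.74-fold, and -0.08 with upper-quartile factors (edgeR adjusted p = 0.79). A fit to only these 4 libraries gave -0.42 and passed (edgeR adjusted p = 0.0048). Counted as a share of everything except Mir150, an alternative added after seeing the data, Mir146 was at 11.2% ± 0.155 in the resting and 14.0% ± 0.393 in the proliferating input, a narrower gap than with all counts.

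In the IP the states overlapped for Mir146, unlike for 74.9% of features. The log2 fold change was 0.24 (SE 0.22, 95% interval -0.20 to 0.68, edgeR adjusted p = 0.35), where 52.1% of features were called. It was 0.89 with upper-quartile factors (edgeR adjusted p = 0.0039). Without resting IP replicate 1 it was -0.02 (edgeR adjusted p = 0.94), so that the sign rests on that library.

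A change of library factors shifts the log2 fold changes of all features nearly alike, so the place of Mir146 relative to the median of the 219 tested features barely depends on the choice of factors by construction and is no sign of stability. The median in the input comparison of states was -0.04 with TMM factors, -0.40 with library totals, 0.31 with upper-quartile factors and -0.000515 with RLE factors (edgeR's relative log expression). Relative to the median, with TMM factors, Mir146 was at -0.40 for resting over proliferating input and at 0.45 for the same comparison in the IP. For IP over input it was 1.001 above the median in resting cells and 0.15 above it in proliferating cells.

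**Figure D3:**
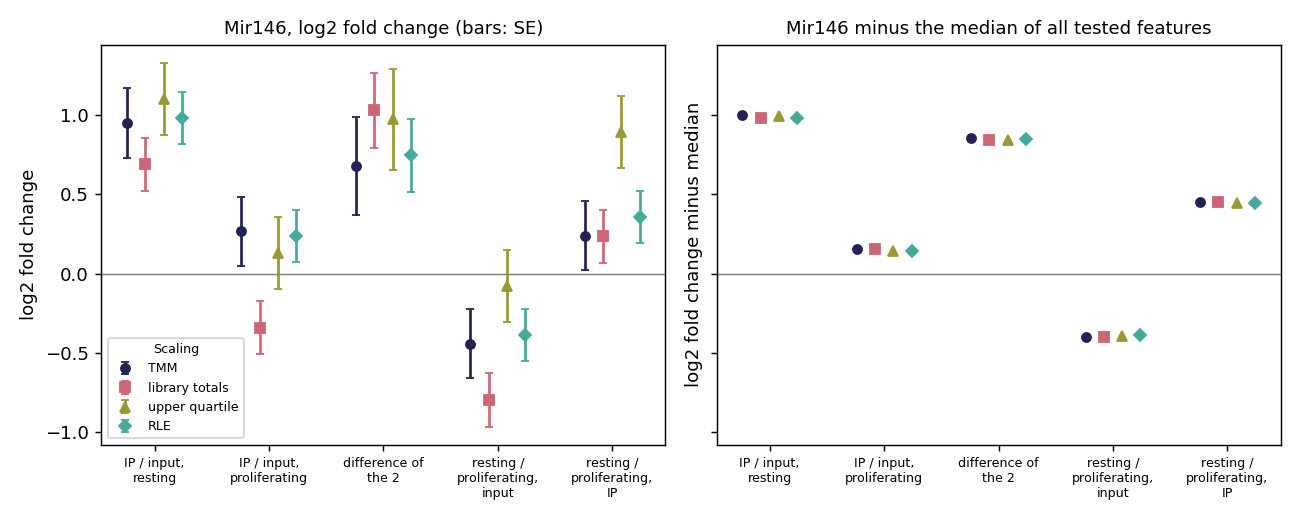
Log2 fold change of Mir146 in the 5 comparisons under 4 scalings, with bars of 1 SE (left), and the same values minus the median of all 219 tested features (right). On the left the values spread from -0.34 to 0.27 for IP over input in proliferating cells, while on the right the 4 scalings coincide to within 0.03 because the subtraction removes a shift common to all features.

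Mir146b entered the tests through the proliferating inputs alone. The filter asks for about 17.01 CPM of the library total in at least 2 libraries, and only those 2 libraries reached it, so that a higher level in the proliferating input was a condition of being tested and its calls there support nothing. With 44 counts in the proliferating and 5 in the resting inputs, the ratio of its levels was 10.52 (95% exact counting interval 4.18 to 34.0). The fitted log2 fold change was -3.26 (SE 1.22, resting over proliferating, edgeR adjusted p = 0.025). It ranged from -8.56 to -2.22 as single libraries were left out. Without resting input replicate 2, proliferating input replicate 1 or proliferating IP replicate 1 the adjusted p of edgeR was 0.21, 0.26 and 0.0505, above the threshold.

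The same condition, a high proliferating input, stood behind the comparison of IP with input in proliferating cells, so its call supports nothing either. The input level of Mir146b was 9.86 times the IP level (95% exact counting interval 5.22 to 19.96), with 44 against 13 counts and a fitted log2 fold change of -3.35 for IP over input (SE 1.11, edgeR adjusted p = 0.020). The adjusted p was 0.30 without proliferating input replicate 1, 0.19 without proliferating IP replicate 1 and 0.070 without proliferating IP replicate 2 (edgeR). With 2 counts in the resting IPs, the ratio of proliferating to resting IP was 7.28 (95% exact counting interval 1.65 to 66.5), and the ratio of resting input to resting IP was 6.83 (95% exact counting interval 1.12 to 71.7). Neither passed in the fit (edgeR adjusted p = 0.13 and 0.23), and leaving out resting input replicate 1, which holds all 5 input counts, turned the latter to a log2 fold change of 2.72 for IP over input. The counting intervals leave out the spread between libraries.

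Mir146 was set beside a list of 13 miRNA genes reported to be induced by NF-kappaB or Toll-like receptor signals, which includes both members. Of the 11 others, 10 had a count and 6 were tested: Mir155, Mir21a, Mir34a, Mir132, Mir212 and Mir147. The Mir9 genes had 4 counts in all, and Mir125b-1 and Mir125b-2 had 27 and 20, mostly in resting IP replicate 1. Mir212 reached the count filter in the proliferating libraries alone, so a lower level in resting cells was a condition of its being tested, and it is left out of the counts and medians that follow. In the input, 4 of the other 5 were lower in resting cells and none was higher, where 26.0% of all tested features were lower. Their median log2 fold change was -2.52, beside -0.04 for all features. Mir155, a driver of the germinal centre response, was at -3.37 (SE 0.24, edgeR adjusted p = 4.9e-15). Mir34a, known as a p53 target, was at -3.17 and Mir132, known to be induced through CREB, at -2.52. Mir21a, an anti-apoptotic miRNA, was at -0.58 (SE 0.22, edgeR adjusted p = 0.028), close to the -0.44 of Mir146. Mir147, at -1.27, did not pass.

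In the IP, again 4 of the 5 were lower in resting cells, where 28.3% of all features were, with a median of -3.20 beside -0.21. Mir155 was at -3.65, Mir34a at -3.20 and Mir147 at -2.80, while Mir21a, at -0.46 (edgeR adjusted p = 0.072), did not pass. Mir132 was at -5.26, with 2 and 11 counts in the resting against 183 and 339 in the proliferating IPs. Mir212, from the same transcript as Mir132, had 1 count in each resting IP against 21 and 50 in the proliferating IPs. Mir146 was the only tested member of the list with a log2 fold change above 0 in the IP, and that value did not pass and turned negative without resting IP replicate 1. For IP against input in resting cells, 1 of the 5 was higher, Mir21a at 1.30, and 1 lower, Mir132 at -2.01, where 13.2% of all features were higher and 15.5% lower. In proliferating cells 1 of the 5 was called, Mir21a at 1.18, where 13.2% were higher and 13.7% lower. Counts of 1 in 5 are near these background shares.

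**Figure D4:**
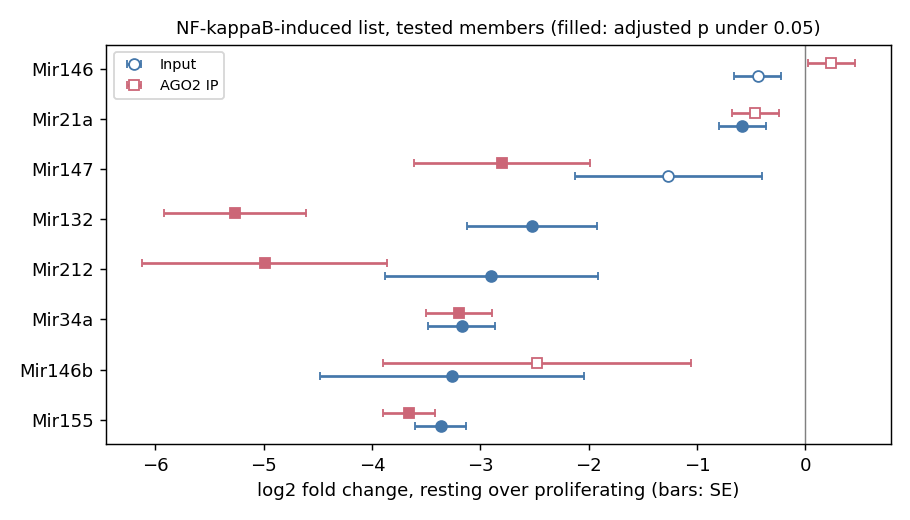
Log2 fold change of resting over proliferating cells for the 8 tested members of the NF-kappaB-induced list, in input (circles) and AGO2 IP (squares), with bars of 1 SE; filled symbols passed an edgeR adjusted p of 0.05. Mir146 and Mir21a lie nearest to 0 and the other members lie below -1; the IP values of Mir212 and Mir146b rest on 2 counts in the resting IPs, and both genes were tested only because of their proliferating libraries.

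A second list holds 16 miRNA genes reported to repress genes of the NF-kappaB pathway, again with both members. Of the 14 others, 7 were tested. In the input 3 of them were higher in resting cells, beside 23.3% of all features, and none was lower. These were Mir223 (3.18), which is also the myeloid marker above, Mir16-1 (1.54) and Mir15a (0.78), the last pair made from a single transcript and reported to repress the kinase IKK-alpha. In the IP 2 were higher, Mir223 (4.59) and Mir16-1 (1.78), beside 23.7% of all features, and 4 were lower, beside 28.3%: Mir181b-1 (-2.91), Mir181b-2 (-1.72), Mir301 (-1.501) and the hypoxia-induced Mir210 (-1.43). Their median was -1.43 in the IP and 0.22 in the input, beside -0.21 and -0.04 for all features. Reads of the miR-181b, miR-16 and miR-125b copies cannot be assigned to one gene with certainty. In resting cells none of the 7 was higher in the IP than in the input, near the background of 13.2%, and 3 were lower, where 15.5% of features were: Mir181b-1 (-3.59), Mir210 (-2.45) and Mir301 (-1.14). Mir181b-1 reached the count filter in both inputs of each state but in only 1 IP library. A lower level in the IP was thus a condition of its being tested, and its call here supports nothing. In proliferating cells 2 were lower in the IP, Mir210 (-1.70) and Mir223 (-1.06), where 13.7% of features were.

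The profile of Mir146 over the 8 libraries was compared with those of the 115 other tested features with a mean of at least 100 CPM, by Pearson's r of the TMM log2 CPM. This is a description over libraries that share groups, and the median r was 0.13. The profiles named below were picked for their likeness to Mir146, so a pattern they share with it follows from the choice. The most similar profile was that of Mir148b (r = 0.90), followed by Mirlet7d (0.85), Mir425 (0.84), Mir92-1 (0.79) and Mir92-2 (0.79). Mir148b stood at 980 and 1019 CPM in resting input, 2775 and 1578 in resting IP, 1998 and 1778 in proliferating input, and 1865 and 2822 in proliferating IP. Like Mir146 it was lowest in the resting inputs and rose in the resting IP (by 1.12 on the log2 scale, edgeR adjusted p = 0.0045). It also passed in the input comparison of states (-0.92, edgeR adjusted p = 0.015). Mirlet7d, a let-7 family member, rose by 1.07 in the resting IP (edgeR adjusted p = 0.0017) and, unlike Mir146, its difference between the IP effects passed (1.18, edgeR adjusted p = 0.023). Mir92-1 and Mir92-2, copies in the miR-17 and miR-106a clusters whose reads cannot be told apart with certainty, rose in both IPs, by 1.61 and 1.81 in resting and 1.60 and 1.48 in proliferating cells. Mir425 passed in none of the 5 comparisons.

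**Figure D5:**
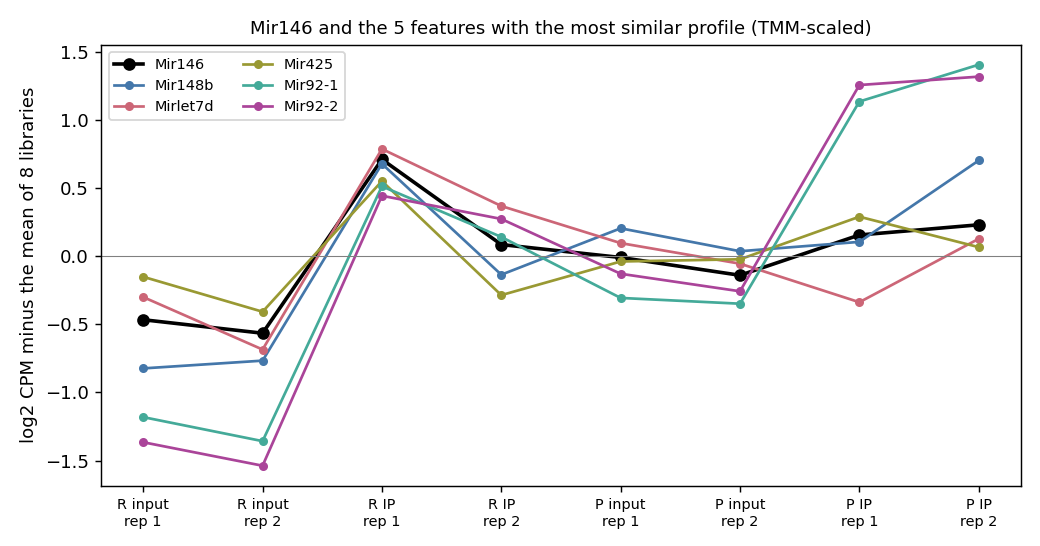
TMM-scaled log2 CPM of Mir146 (black) and the 5 features with the highest Pearson correlation to it, each minus its own mean over the 8 libraries. R is resting and P proliferating. All 6 profiles lie below their mean in the resting inputs and above it in resting IP replicate 1, and they part in the proliferating IPs, where Mir92-1 and Mir92-2 are highest.

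Mir146b did not follow Mir146 (r = -0.17 over the 8 libraries). Its nearest profiles were those of Mir744 (r = 0.87), Mir423 (0.85), Mir5099 (0.81), Mir222 (0.75) and Mir183 (0.72). All 5 were lower in the resting than in the proliferating input (log2 fold changes from -3.59 to -1.10), beside 26.0% of all tested features. They were picked for their likeness to Mir146b, which was tested only because its proliferating inputs were high. Their pattern thus follows from the choice and supports nothing. In proliferating cells Mir744, Mir423 and Mir5099 were lower in the IP than in the input, with log2 fold changes of -1.77, -2.07 and -4.66. Of all tested features 13.7% were lower in that comparison. The low counts of Mir146b in 6 of the 8 libraries limit these correlations.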

How the data were processed

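Small RNA libraries (QIAseq miRNA kit, single-end reads on a NextSeq) were sequenced from 8 samples. STAR 2.7.9a, SAMtools 1.15 and the build mm10 are named in the submitters' processing notes. The authors deposited raw counts per miRNA gene from deduplicated alignments, per the file headers, in 1 table for each cell state. How duplicates were removed, and the counter with its treatment of strand and of multiply mapped reads, is not given in the sources. Features were named by exact position in RefSeq genes (GRCm38.p6), which named 1179 of 2202.

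Groups and replicate numbers came from the sample titles. Nothing states that the libraries of a group are from different animals, and the p-values then measure a spread that may be technical. That spread rests on 36.6 prior and 4 residual degrees of freedom. In no group did replicates agree within sampling noise (chi-square over degrees of freedom from 8.56 up). edgeR 4.0.16 in R 4.3.3 (filterByExpr, minimum count 10, TMM factors from 0.797 to 1.34) tested 219 features in 5 contrasts, 2-sided, with Benjamini-Hochberg adjustment over all features, at 0.05. SE is the log2 fold change over the root of F. Floors use 3 counts.

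The members, the lists and the rule for named genes (list members with at least 10 counts, the neighbours of Mir146 in abundance and the 5 most similar profiles) were chosen with earlier results of these data known. Alternatives were DESeq2 1.42.0, other scalings, no filter, leaving out features over snoRNA, scaRNA or tRNA genes, a replicate block, fits to 2 groups and leaving out each library. The last pair kept the 219 features.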

Additional observations from a re-analysis of the deposited data

How the results depend on the processing

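The rise of Mir146 in the resting IP kept its direction and call in all 8 settings (0.69 to 1.18 on the log2 scale) and all 8 fits without a library (0.53 to 0.997). With library totals Mir146 changed to -0.34 for IP over input in proliferating cells, to 1.03 for the difference between states and to -0.80 between the inputs. With upper-quartile factors it was 0.89 between the IPs. With no filter the difference between states was 0.88, and with only the 2 groups compared the inputs differed by -0.42. Mir146b between the inputs lost its call with upper-quartile (-2.95) and RLE factors (-3.19). The features called for the difference between states numbered 38, but 22 with upper-quartile and 25 with RLE factors.

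Without single libraries, Mir146 ranged from 0.11 to 0.33 for IP over input in proliferating cells, from 0.22 to 0.85 for the difference between states, from -0.51 to -0.24 between inputs and from -0.020 to 0.43 between IPs. Mir146b ranged from -3.62 to 2.72 and from -5.31 to -2.45 for IP over input in resting and proliferating cells, from -0.26 to 6.07 for the difference and from -8.56 to -2.22 between inputs. Calls ranged from 31 to 65 for IP over input in proliferating cells (59 with all) and from 15 to 49 for the difference.

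The Mir146 share of the resting input was 8.20% without features over snoRNA, scaRNA or tRNA genes, 7.62% of the TMM-scaled total and 11.2% without Mir150. It was 15.0% of the resting IP without Mir150, 14.0% and 10.4% of the proliferating input by the former and the TMM-scaled denominator, and 12.5% of the proliferating IP by the latter.

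Replicate numbers appear in all groups, but the labels do not say that they pair samples, and deviations of same-numbered libraries in the groups compared correlated with r from -0.089 to 0.18. With the replicate block Mir146 was at 0.93 in the resting IP (edgeR adjusted p = 6.2e-04), and no call of a member changed. Mir146b is limited by depth, since 1 count is worth 0.595 to 4.69 CPM.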
